A study of Mus musculus with 8 samples.

Results

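Macrophages given a virus-like stimulus and a second agent can respond to the stimulus more strongly, less strongly or to the same degree as cells given the stimulus alone. The quantity described here is that difference of responses, the interaction of MSDC with Poly(I:C): for each gene, the log2 change between Poly(I:C) and no Poly(I:C) in cells given MSDC, minus the same change in cells given vehicle. It was computed for every gene expressed well enough to be tested, 11621 of 15521 in the table. It is positive where the response was larger, or less negative, with MSDC.

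Alveolar macrophages, phagocytes that live in the air sacs, had been washed from mouse lungs, kept by adherence for 2 h and cultured with the growth factor GM-CSF at 10 ng/ml. All 8 samples received GM-CSF and were pretreated for 2 h. The vehicle group (2 samples) received DMSO only, and the MSDC group (2 samples) received MSDC at 10 µM. The Poly(I:C) with vehicle group (2 samples) received DMSO followed by Poly(I:C) at 5 µg/mL, and the Poly(I:C) with MSDC group (2 samples) received MSDC followed by the same dose of Poly(I:C). The labels give 24 h of stimulation and the series description gives overnight. Strain, age and sex of the mice are not given in the sources used here, nor is it stated that replicates were independent cultures or animals; p-values therefore cover the spread of these libraries, possibly technical.

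Poly(I:C) is a synthetic double-stranded RNA that cells read as a sign of viral infection, through Toll-like receptor 3 in endosomes and the RIG-I-like receptors in the cytosol. These sensors switch on type I interferons, whose receptor activates a transcription factor complex that contains IRF9, binds the interferon-stimulated response element and turns on antiviral genes, while a parallel branch through NF-kB turns on inflammatory genes. A low, tonic level of the same signalling sets how much of the antiviral gene products resting cells hold. MSDC is the prefix of a series of coded compounds that are known to target the mitochondrial pyruvate carrier, the entry point of pyruvate into mitochondria. Which of them was used is not given in the labels.

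Libraries held 28762425 to 29493223 counts, and 3 counts, used as the floor of detection, were 0.102 to 0.104 CPM (counts scaled to a common library total) in a library; this covers counting error only. Among alveolar macrophage markers, Siglecf (296 to 333 CPM), Chil3 (3263 to 6778 CPM) and Mrc1 (1057 to 1470 CPM) were high in every library. Others varied more between libraries: Ear1 from 39.7 to 708 CPM, Krt79 from 6.02 to 127 CPM, Marco from 262 to 1060 CPM and Fabp4 from 183 to 663 CPM. Markers of T and NK cells summed to at most 0.243 CPM and those of B cells to at most 0.137 CPM, with Nkg7 at 0 in every library. Other marker sums moved with the groups, given in the order vehicle and MSDC without Poly(I:C), then vehicle and MSDC under Poly(I:C). Monocyte markers summed to 10.6 to 11.3, 4.10 to 4.62, 10.4 to 12.1 and 4.43 to 5.30 CPM, and dendritic cell markers to 8.18 to 9.73, 4.33 to 5.03, 11.997 to 14.3 and 6.16 to 7.67 CPM. Fibroblast and endothelial markers, nearly all Vwf, summed to 199 to 200, 138 to 140, 116 to 131 and 102 to 108 CPM, and epithelial markers, nearly all Cdh1, to 77.7 to 82.5, 59.1 to 66.0, 52.9 to 54.7 and 49.2 to 50.5 CPM. Their part in the interactions was not tested. In bulk RNA, fewer cells of a type and less RNA per cell cannot be told apart. Below, CPM values use library totals adjusted by TMM factors, group values are means ± SD (n = 2), and interactions are on the log2 scale with a standard error (SE) derived from the F statistic. The adjusted p is from edgeR's quasi-likelihood test of the interaction, Benjamini-Hochberg adjusted over the 11621 genes, and a gene is called where it is under 0.05. Only the interaction was tested: levels and the response in each arm are descriptions.

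The interaction reached the threshold in 26 genes, 0.224% of those tested, of which 14 were higher with MSDC (0.12%) and 12 lower (0.103%). The 14 were Gbp7, Oas1a, Xaf1, Slfn5, Slfn8, Ifi204, Mndal, Irf9, Dhx58, Lgals9, H2-T24, Ifi27, Ncoa7 and the predicted gene Gm14308; 4 of them (Oas1a, Xaf1, Ifi204, Slfn5) are in the list of interferon-stimulated genes described below. The 12 included Acod1, Cfb, Ass1, H2-D1, H2-K1, Clec7a, Clec4e, Junb, Sema4d, Nt5c3 and Selenow. Unadjusted p values were under 0.05 in 756 genes, 373 higher and 383 lower. The median interaction over all tested genes was 0.01, and 90% of genes lay between -0.45 and 0.49 (the 5th and 95th percentiles). The split of the 26 calls depended on scaling: 53.8% were higher here, against 77.8% with library totals as the only scaling (14 higher and 4 lower).

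**Figure D1:**
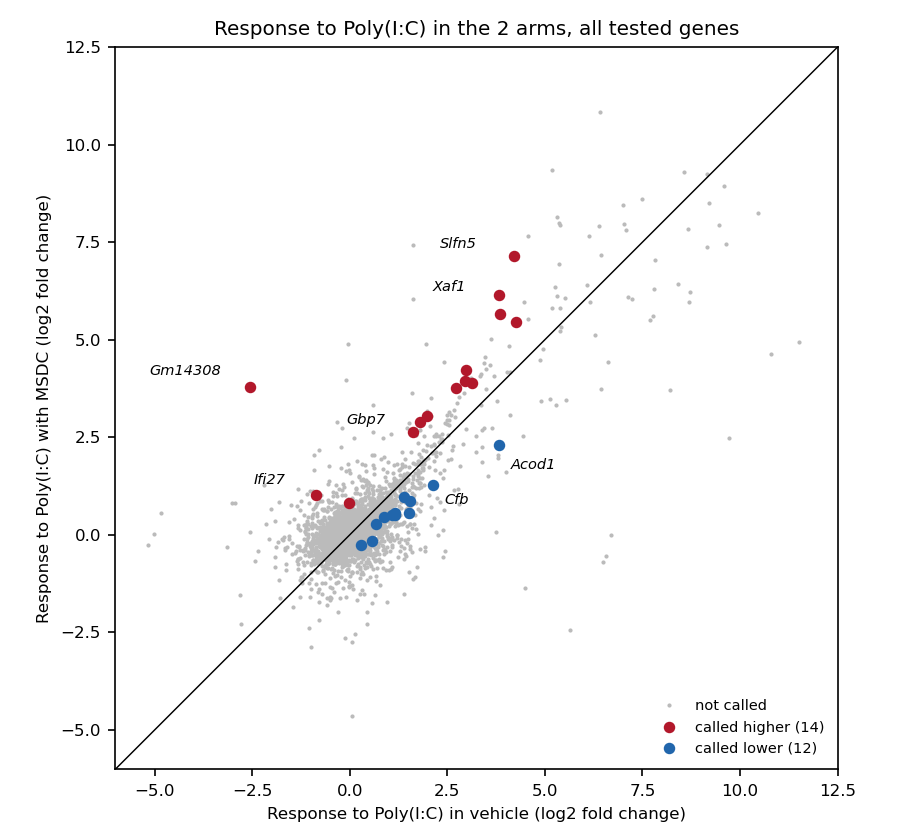
Response to Poly(I:C) in vehicle (x axis) against the response with MSDC (y axis), both as fitted log2 fold changes, for each tested gene; the line marks equal responses, so the vertical distance from it is the interaction. The 14 genes called higher (red) lie above the line and the 12 called lower (blue) below it, and the large uncalled responses on the right scatter around the line.

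A short sequence near the gene start, which the test did not use, was found for 7 of the 14 genes called higher, 10 of which had a RefSeq window to search. The core of the interferon-stimulated response element, GAAA, any 2 bases and GAAA again, was searched on both strands from 250 bases before to 50 after each RefSeq start (GRCm38.p6). It was present for 7 of these 10 and for 0 of the 10 called-lower genes that had one, against 3.98% of the 9379 tested genes with a window. The gamma-activated site letters TTCNNNGAA were present for 2 of the 10, Gbp7 and Oas1a, against 8.3% of tested genes. The 7 were Gbp7, Lgals9, Oas1a, Slfn8, Slfn5, Mndal and Ncoa7. The letters were chosen after the called genes were known, interferon-inducible genes are known to carry this element, and a match is a description of the sequence, not a site shown to be used. The stretches below, 80 bases upstream of the start on the strand of the gene, show the match in capitals for 4 of them, chosen to set the antiviral genes beside Lgals9; capitals that begin with TTTC are the element on the opposite strand, and in Oas1a a pair of overlapping matches runs together.
Gbp7 (chr3:142530248-142530327, plus strand): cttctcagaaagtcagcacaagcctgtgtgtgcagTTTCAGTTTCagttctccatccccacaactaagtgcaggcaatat
Lgals9 (chr11:78984935-78985014, minus strand): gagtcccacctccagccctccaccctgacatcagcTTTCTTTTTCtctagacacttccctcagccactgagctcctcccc
Oas1a (chr5:120907526-120907605, minus strand): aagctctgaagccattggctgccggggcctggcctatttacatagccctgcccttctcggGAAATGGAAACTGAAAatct
Slfn8 (chr11:83020814-83020893, minus strand): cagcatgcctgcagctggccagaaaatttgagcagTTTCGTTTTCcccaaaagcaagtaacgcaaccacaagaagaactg

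Of the 14 higher interactions, 13 shared one arrangement of levels before stimulation, with both MSDC libraries below both vehicle libraries. After Poly(I:C), both MSDC libraries still lay below both vehicle libraries in 11 of the 14. The MSDC difference was at least 2 times as large without Poly(I:C) as with it in 10 of the 14. The median log2 difference between MSDC and vehicle was -1.48 without Poly(I:C) and -0.25 with it, against -0.0015 and -0.0024 over all tested genes. The interaction is the second difference minus the first, so selection for a high interaction itself favours a low first one. Shares over all tested genes were not computed for these counts or for those of the lower calls below. The counts are therefore descriptions, and do not show an arrangement particular to the called genes. For the 11 genes that stayed below vehicle under Poly(I:C), a positive interaction requires a still lower MSDC difference at rest. A larger log2 response with a lower starting level thus follows from how these 11 were picked and is no separate result. On the untransformed CPM scale the sign turned for 10 of the 14: the added CPM were fewer with MSDC for every called-higher gene other than Irf9, Ifi27, Ncoa7 and Gm14308.

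Gbp7, a guanylate-binding protein gene of cell-autonomous defence (chr3:142530336-142550151 in GRCm38), was the clearest of these. It stood at 40.3 and 39.1 CPM in the vehicle libraries and at 15.6 and 15.3 CPM in the MSDC libraries. After Poly(I:C) it reached 121 and 123 CPM with vehicle and 97.1 and 96.8 CPM with MSDC. No groups overlapped and replicates lay close together, so that a 3.07-fold response in vehicle stood beside a 6.27-fold response with MSDC. The interaction was 1.03 (SE 0.10, adjusted p = 0.000158). On the CPM scale the gain was nearly the same in both arms, with a difference of -0.868 CPM (MSDC minus vehicle).

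Lgals9, which encodes galectin-9, an interferon-inducible lectin that binds TIM-3 (chr11:78962979-78984924), went from 110 and 93.8 CPM to 384 and 427 CPM with vehicle. With MSDC it went from 21.5 and 23.8 CPM to 188 and 186 CPM. MSDC libraries were below vehicle libraries both before and after stimulation, with log2 differences of -2.17 and -1.12. The interaction was 1.05 (SE 0.12, adjusted p = 0.000622), while the difference of the gains in CPM had the opposite sign, -139 CPM.

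Genes of interferon signalling and RNA sensing showed the same arrangement with more spread among the vehicle libraries. Irf9, the DNA-binding part of the complex that interferon receptors activate, stood at 35.4 and 25.2 CPM in vehicle and 11.7 and 14.4 CPM in MSDC, and at 102 and 107 CPM against 99.8 and 94.9 CPM after Poly(I:C). Its interaction was 1.10 (SE 0.18, adjusted p = 0.0134). Dhx58, which encodes the RIG-I-like receptor LGP2, stood at 24.6 and 17.4 CPM against 8.40 and 10.7 CPM before stimulation, and at 160 and 168 CPM against 146 and 148 CPM after it. Its interaction was 0.98 (SE 0.18, adjusted p = 0.0387). In both genes the stimulated groups were separated by a small margin beside the resting ones.

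Interactions of the antiviral effectors Oas1a, Slfn8, Xaf1 and Slfn5 ran from 1.23 to 2.92. Oas1a, an oligoadenylate synthetase that activates RNase L, went from 48.1 and 33.6 CPM to 321 and 327 CPM with vehicle and from 14.1 and 15.5 CPM to 265 and 285 CPM with MSDC (interaction 1.23, SE 0.17, adjusted p = 0.00532). Xaf1, which encodes an antagonist of the inhibitor of apoptosis XIAP, went from 5.23 and 2.77 CPM to 55.7 and 58.0 CPM with vehicle, and from 0.551 and 0.676 CPM to 43.4 and 44.9 CPM with MSDC. Its interaction was 2.33 (SE 0.34, adjusted p = 0.00898), made up of a log2 difference between MSDC and vehicle of -2.69 at rest and of -0.37 after Poly(I:C). With limma on log2(FPKM + 1) the interaction of Xaf1 was 0.83 (adjusted p = 0.647), and neither limma voom nor log2(FPKM + 0.1) called it.

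The Schlafen genes, which restrict growth and viral translation, lie in one cluster on chromosome 11 and had their levels in the same order. Slfn5 stood at 21.7 and 7.86 CPM in vehicle and 1.205 and 2.095 CPM in MSDC, and at 262 and 289 CPM against 228 and 240 CPM after Poly(I:C) (interaction 2.92, SE 0.47, adjusted p = 0.0134). The vehicle libraries differed from each other by more, on the log2 scale, than the stimulated groups did, and the interaction of Slfn5 was 2.01 without vehicle replicate 1 and 3.48 without vehicle replicate 2. Slfn8 stood at 10.1 and 5.91 CPM against 1.93 and 1.93 CPM before stimulation and at 112 and 121 CPM against 103 and 91.3 CPM after it (interaction 1.79, SE 0.26, adjusted p = 0.00898). With limma on log2(FPKM + 1) the values were 1.18 for Slfn5 and 0.79 for Slfn8, and none of the 3 limma fits called either gene.

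For Ifi204 and Mndal, a pair of PYHIN genes, which encode proteins that bind nucleic acids, the stimulated level was lower with MSDC too. Ifi204 went from 18.8 and 13.3 CPM to 302 and 317 CPM with vehicle and from 3.10 and 3.75 CPM to 155 and 148 CPM with MSDC (interaction 1.19, SE 0.19, adjusted p = 0.0134). Its interaction was 0.68 with limma on log2(FPKM + 1), and none of the 3 limma fits called it. Its neighbour Mndal, chosen after its values were seen, went from 19.1 and 16.8 CPM to 158 and 157 CPM with vehicle and from 6.16 and 6.76 CPM to 97.1 and 94.1 CPM with MSDC (interaction 0.75, SE 0.12, adjusted p = 0.0134). The nonclassical class I gene H2-T24 had an interaction of 1.04 (SE 0.17, adjusted p = 0.0152). It stood at 13.9 and 10.3 CPM in vehicle and 4.34 and 4.29 CPM in MSDC before stimulation, and at 78.2 and 81.3 CPM against 56.9 and 60.2 CPM after it. None of the 3 limma fits called Mndal or H2-T24 either. Deposited values were not whole numbers in all 8 libraries for Oas1a, Slfn5, Slfn8, Ifi204 and Mndal, which have close relatives in the genome, so how their reads were split between copies is uncertain.

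**Figure D2:**
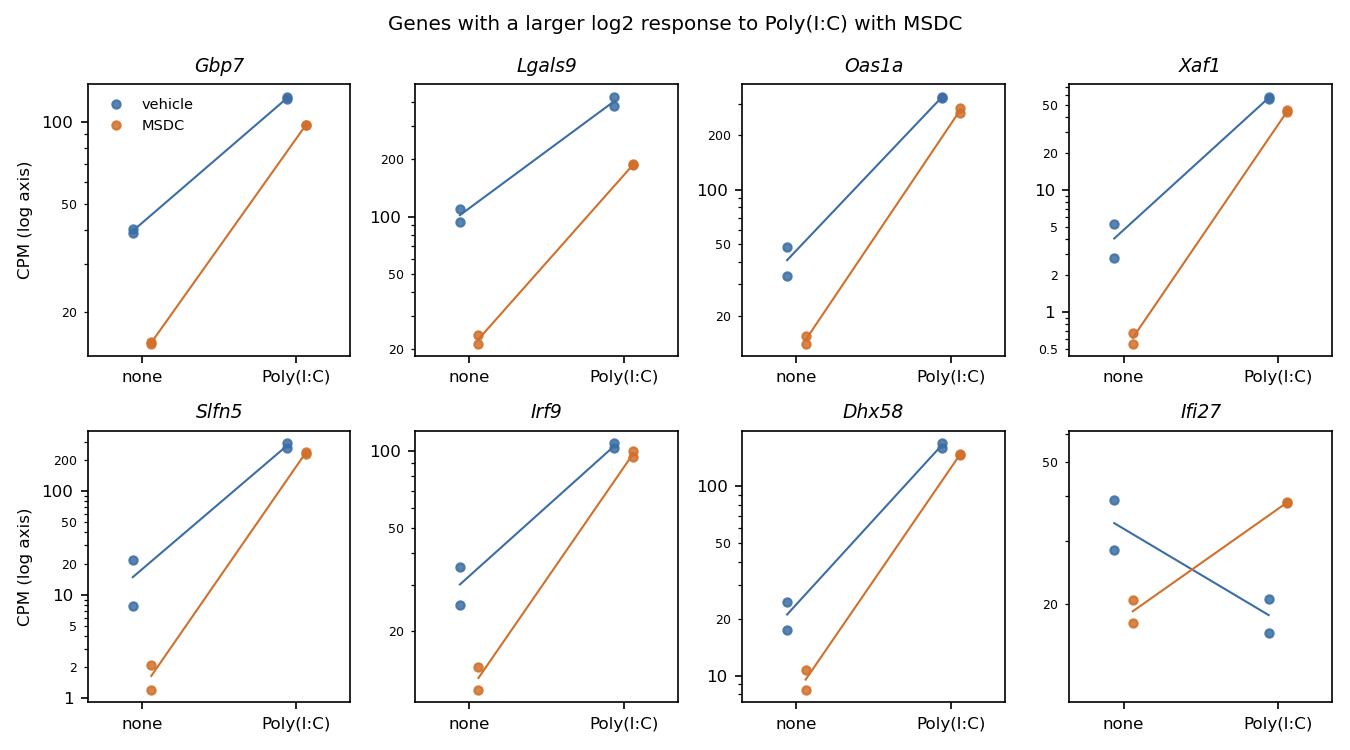
CPM on a log axis in each of the 8 libraries (points) and group means (lines) without and with Poly(I:C), for 8 genes with a larger log2 response with MSDC; blue is vehicle and orange MSDC. In 7 panels the resting MSDC points are the lowest and the lines converge towards Poly(I:C), and in Ifi27 the lines cross.

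A separate pattern held in 3 of the 14: the level with Poly(I:C) was higher with MSDC. Ifi27, an interferon-inducible gene of mitochondria and the nuclear envelope, stood at 39.0 and 28.3 CPM in vehicle and at 20.6 and 16.5 CPM in Poly(I:C) with vehicle, a lower level under the stimulus. With MSDC it stood at 17.7 and 20.4 CPM before and 38.4 and 38.5 CPM after Poly(I:C). The directions in the arms were thus opposite, 0.553-fold against 2.02-fold, with an interaction of 1.87 (SE 0.19, adjusted p = 0.000354).

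Ncoa7, which encodes a protein with an interferon-inducible short form that acts on endosome acidification, was at 10.8 and 9.51 CPM in vehicle and 9.84 and 10.1 CPM in Poly(I:C) with vehicle, so that these groups overlapped. With MSDC it went from 11.98 and 11.79 CPM to 21.1 and 21.1 CPM (interaction 0.85, SE 0.16, adjusted p = 0.0387). The predicted gene Gm14308, outside the rule for naming genes, had the largest interaction (6.33, SE 0.96, adjusted p = 0.00987) on few counts: 7.51 and 4.39 CPM in vehicle, 0.138 and 0.811 CPM in MSDC, 0 and 2.04 CPM in Poly(I:C) with vehicle and 6.65 and 6.64 CPM in Poly(I:C) with MSDC. In 1 library it had no count, 6 of its 8 deposited values were not whole, and its interaction ranged from 2.11 to 14.23 over the alternatives tried, so its size is not fixed by these data.

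The 12 lower interactions had responses that were smaller with MSDC: Poly(I:C) gave a higher level than no Poly(I:C) in both arms for 10 of them, and in vehicle only for Junb and Clec4e. Here the sign was the same on the log2 and the CPM scale for all 12. The levels behind them fell into different arrangements, with the MSDC difference at least 2 times larger in the stimulated pair for 5 (among them Acod1, H2-K1, Junb and Clec4e), in the unstimulated pair for 2 (Cfb, H2-D1), and in neither for 5 (Ass1, Clec7a, Sema4d, Selenow, Nt5c3). The median log2 difference between MSDC and vehicle was -0.16 without Poly(I:C) and -0.79 with it.

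Acod1, which encodes the mitochondrial enzyme that makes itaconate from a TCA cycle intermediate (chr14:103047012-103056573), was the largest of the 12. It stood at 5.03 and 5.32 CPM in vehicle and 4.37 and 3.89 CPM in MSDC, and at 79.1 and 68.4 CPM against 21.0 and 19.6 CPM after Poly(I:C). Resting levels lay close together and stimulated levels far apart, a 14.2-fold response beside a 4.91-fold response. The interaction was -1.54 (SE 0.17, adjusted p = 0.000622).

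Ass1, which makes argininosuccinate and so regenerates arginine, the substrate of nitric oxide synthesis, was lower with MSDC throughout. It went from 244 and 262 CPM to 534 and 540 CPM with vehicle and from 127 and 121 CPM to 179 and 173 CPM with MSDC (interaction -0.58, SE 0.09, adjusted p = 0.00987). After stimulation the MSDC libraries were thus below even the resting vehicle libraries.

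Cfb and H2-D1, of the complement and class I systems, differed between MSDC and vehicle mainly before stimulation. Cfb, complement factor B of the alternative pathway (chr17:34856374-34862514), was higher with MSDC at rest, at 435 and 424 CPM against 242 and 252 CPM in vehicle. After Poly(I:C) the groups lay side by side, at 1035 and 1051 CPM with MSDC and 1118 and 1048 CPM with vehicle, and overlapped. The interaction was -0.85 (SE 0.08, adjusted p = 0.000158), the smallest adjusted p, shared with Gbp7.

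H2-D1, a classical class I heavy chain, repeated this: 1024 and 1048 CPM in vehicle and 1390 and 1427 CPM in MSDC at rest, and 1926 and 1916 CPM against 1886 and 1999 CPM after Poly(I:C), where the groups overlapped (interaction -0.43, SE 0.07, adjusted p = 0.0291). H2-K1, another classical class I heavy chain, began level, at 294 and 296 CPM against 302 and 315 CPM. It ended at 784 and 775 CPM with vehicle and 595 and 608 CPM with MSDC (interaction -0.44, SE 0.08, adjusted p = 0.0318). So the class I genes called lower did not share one arrangement, and H2-T24 was called in the other direction. Values of H2-D1 were not whole in 8 of 8 libraries and those of H2-K1 in 6, and class I genes resemble each other. Both calls were lost with library totals alone, with both log2(FPKM) fits and without any 1 library other than an unstimulated vehicle library, and that of H2-K1 also with the replicate block (interactions from -0.46 to -0.39 and from -0.45 to -0.39 for H2-K1 and H2-D1 when libraries were left out).

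Receptors of innate recognition were among the lower calls. Clec7a, which encodes the beta-glucan receptor Dectin-1, was the most abundant of the 26, at 2530 and 2388 CPM in vehicle and 1461 and 1503 CPM in MSDC, and at 3969 and 3837 CPM against 1781 and 1806 CPM after Poly(I:C) (interaction -0.39, SE 0.07, adjusted p = 0.0434). Clec4e, which encodes the receptor Mincle, stood at 47.9 and 40.7 CPM against 42.0 and 41.2 CPM at rest, where the groups overlapped, and at 71.5 and 59.7 CPM against 38.7 and 36.3 CPM after Poly(I:C) (interaction -0.72, SE 0.14, adjusted p = 0.0461). Its level under Poly(I:C) was thus lower than at rest in cells given MSDC and higher than at rest in cells given vehicle.

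The AP-1 subunit gene Junb likewise had opposite directions in the arms, at a smaller size, 56.1 and 59.1 CPM to 72.3 and 67.6 CPM with vehicle and 48.0 and 49.9 CPM to 41.7 and 39.8 CPM with MSDC (interaction -0.55, SE 0.10, adjusted p = 0.0434). Sema4d, a membrane semaphorin, went from 16.9 and 17.3 CPM to 47.9 and 49.8 CPM with vehicle and from 7.26 and 7.54 CPM to 12.6 and 9.36 CPM with MSDC (interaction -0.94, SE 0.17, adjusted p = 0.0423). The selenoprotein gene Selenow and the nucleotidase gene Nt5c3, had means that were slightly higher with MSDC at rest and lower after Poly(I:C). Their interactions were -0.66 (SE 0.10, adjusted p = 0.0123) and -0.61 (SE 0.11, adjusted p = 0.0434).

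**Figure D3:**
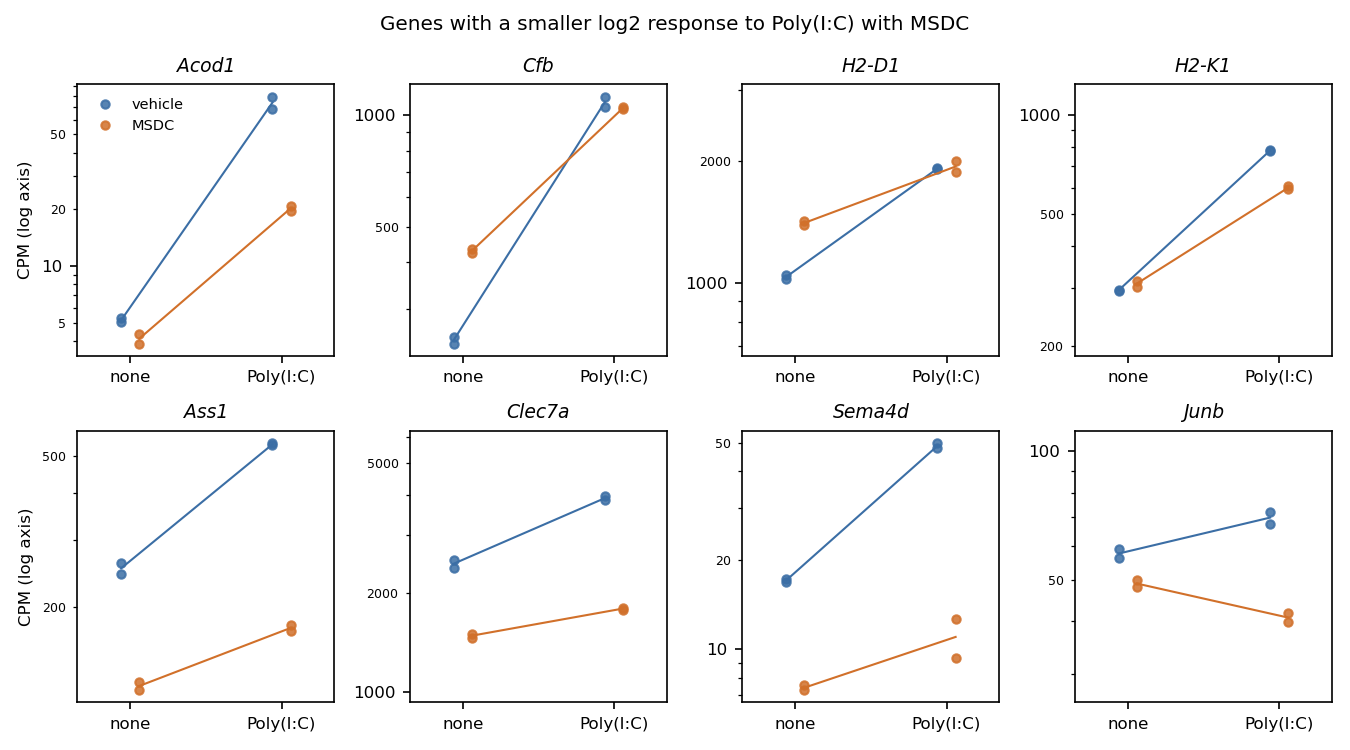
CPM on a log axis in each library (points) and group means (lines) without and with Poly(I:C), for 8 genes with a smaller log2 response with MSDC; blue is vehicle and orange MSDC. Acod1, H2-K1 and Junb begin closer together than they end, Cfb and H2-D1 begin apart and end together, and Ass1, Clec7a and Sema4d lie apart throughout.

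**Figure D4:**
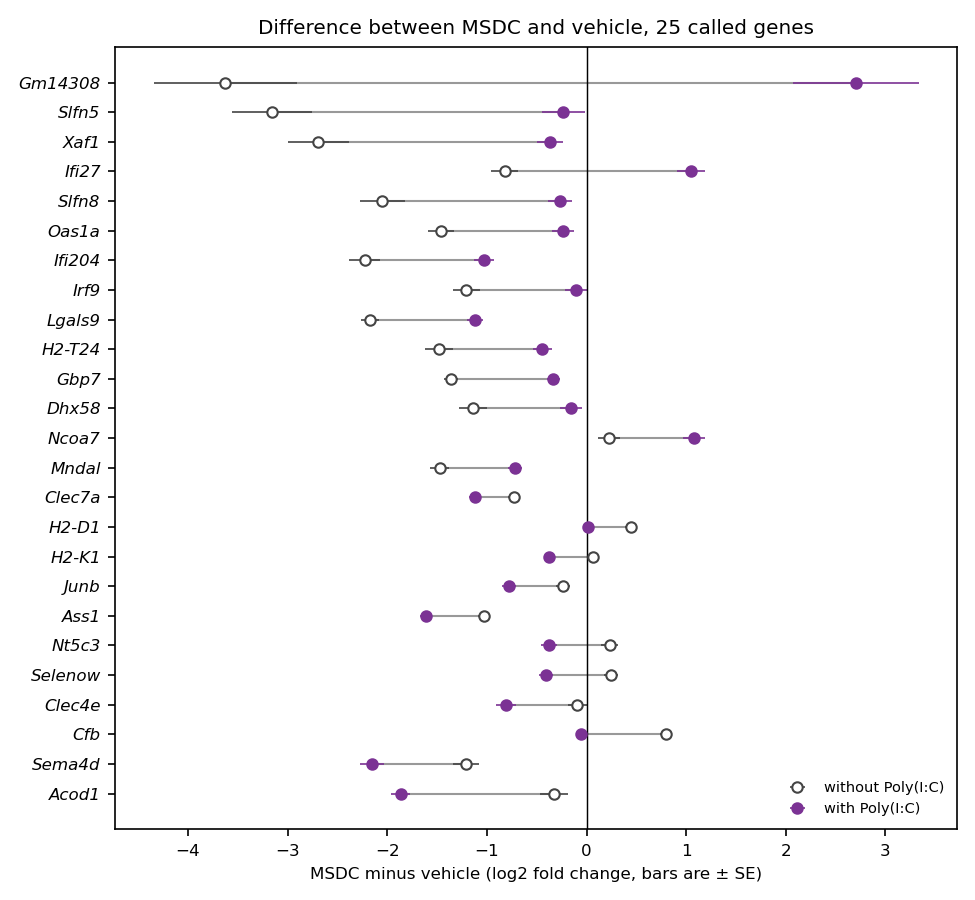
Fitted log2 difference between MSDC and vehicle without Poly(I:C) (open) and with it (filled) for 25 of the called genes, with bars of ± SE; the distance between the points of a gene is its interaction. For the 11 genes called higher other than Ifi27, Ncoa7 and Gm14308 the open points lie to the left of the filled points, which are nearer 0, and for Acod1 and Clec4e the filled points are the ones far from 0.

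Some called genes are neighbours, and the spans given here were drawn from called gene to called gene, so the counts in them are a description only, beside 0.224% called over all genes. On chromosome 17 the span from H2-K1 to H2-T24, chr17:33996012-36020800 in GRCm38, holds the major histocompatibility complex and 85 tested genes, of which 4 were called: H2-K1, Cfb and H2-D1 lower and H2-T24 higher. Slfn5 and Slfn8 were 2 of 3 tested genes within 69462 bp on chromosome 11. Ifi204 and Mndal were the only tested genes within 133090 bp on chromosome 1. Neighbouring relatives in such clusters can share reads, as above.

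Read by pathway, the interferon-stimulated genes as a list were less uniform than the called members. Of 30 tested, 4 were called higher (Oas1a, Xaf1, Ifi204, Slfn5) and 0 lower, 19 had an interaction above 0, and the median was 0.55 against 0.01 over all tested genes, of which 51.4% were above 0. Over all tested genes 0.12% were called higher and 0.103% lower. Without the filter on low counts, edgeR called 12 of the 30 higher and 2 lower. That fit called 64 genes higher and 52 lower of 14928. By other tools the list had 4 calls higher and 2 lower with DESeq2 (Ifi44 and Ifit2 lower). Limma gave 1 higher and the same 2 lower on log2(FPKM + 1), 1 higher with voom and 0 on log2(FPKM + 0.1). Over all 11621 tested genes DESeq2 called 23 higher and 24 lower. Limma called 6 and 24 on log2(FPKM + 1), 6 and 6 with voom, and 3 and 4 on log2(FPKM + 0.1). The median response of the list was 5.29 in vehicle and 6.25 with MSDC. Members with no call ranged from -7.23 for Ifi44, which had no count in the vehicle libraries, to 4.41 for Ifit1bl1, which had none in the MSDC libraries, so that neither value has a fixed size. Ifit2, an RNA-binding antiviral protein, had -1.05 (SE 0.26, adjusted p = 0.223) and the DNA- and RNA-sensor gene Zbp1 had 0.37 (SE 0.10, adjusted p = 0.317). Isg15, the ubiquitin-like modifier, had 0.31 (SE 0.38, adjusted p = 0.948), with 2.31 and 1.29 CPM in vehicle, 0.688 and 1.52 CPM in MSDC, 123 and 122 CPM in Poly(I:C) with vehicle and 82.5 and 105 CPM in Poly(I:C) with MSDC.

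The resting libraries differed among themselves in these genes. In the vehicle group 29 of the 30 were higher in replicate 1 than in replicate 2, by a median of 0.70 on the log2 scale. In the MSDC group 23 were lower in replicate 1 than in replicate 2 and 6 higher, with a median of -0.72. All 14 genes called higher were likewise higher in vehicle replicate 1, by a median of 0.49. Over all tested genes the medians were 0.00 and 0.01. The list median was 0.05 without vehicle replicate 1, 0.99 without vehicle replicate 2, 0.19 without MSDC replicate 1 and 1.38 without MSDC replicate 2, so its size changed with single resting libraries. The number called among the 30 was 4 here, 0 without MSDC replicate 1, 2 without replicate 1 and 0 without replicate 2 of Poly(I:C) with MSDC, 7 without MSDC replicate 2 and 11 without vehicle replicate 2. The part of this spread between replicates in the called interactions was not tested. Irf7, the factor that amplifies interferon production, stood at 15.5 and 6.24 CPM in vehicle, 1.69 and 4.22 CPM in MSDC, 943 and 939 CPM in Poly(I:C) with vehicle and 407 and 456 CPM in Poly(I:C) with MSDC. Its interaction was 0.75 (SE 0.42, adjusted p = 0.83), and was -0.05 without vehicle replicate 1 and 1.26 without vehicle replicate 2. Rtp4 and Cmpk2, just outside the threshold and shown after their values were seen, had resting values of 11.2 and 3.40 CPM and of 3.97 and 1.72 CPM in vehicle, with interactions of 3.07 (adjusted p = 0.0917) and 2.84 (adjusted p = 0.0599).

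Upstream of these genes, the RNA-sensing list had 1 call among 15 tested, Dhx58, and a median of 0.06. Over all tested genes 0.224% were called, and the median was 0.01. The receptor gene Ddx58, which encodes RIG-I, had 0.71 (SE 0.18, adjusted p = 0.221), and the sensor gene Ifih1, which encodes MDA5, 0.37 (SE 0.12, adjusted p = 0.53), in the same direction as Dhx58 without reaching the threshold. The adaptor gene Mavs had 0.02 and the adaptor gene Ticam1 0.06. Among 14 IRF and STAT factors, Irf9 was the only call (median 0.08). Of 15 guanylate-binding proteins and immunity-related GTPases 12 had a value above 0, with a median of 0.32 and the single call of Gbp7. Ifnb1 held 3 counts in 1 library of Poly(I:C) with vehicle and 0 in the other 7, and Il6 at most 4 counts in a library, so the genes of these cytokines were not tested.

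Most tested members of the inflammatory lists had interactions below 0, nearly all of them short of the threshold, where 51.4% of all tested genes were above 0. Over all 11621 tested genes, 756 had an unadjusted p under 0.05 in edgeR and 26 were called (0.224%). Of 17 NF-kB factors and feedback genes 16 had an interaction below 0, with a median of -0.29 and 0 calls by edgeR, DESeq2 or limma (6 at an unadjusted p under 0.05 in edgeR). The median was between -0.40 and -0.28 when any library was left out. Tnfaip3, which encodes the feedback inhibitor A20, had -0.42 (SE 0.13, adjusted p = 0.431), Nfkbia, which encodes the inhibitor IkB-alpha, -0.40 (SE 0.12, adjusted p = 0.407), and Icam1, an adhesion molecule, -0.38 (SE 0.09, adjusted p = 0.177). Of 16 chemokines 13 were below 0 (median -0.36), with 0 calls by edgeR as run here (7 at an unadjusted p under 0.05). Of its 47 calls over all tested genes, DESeq2 had 2 here, Ccl9 and Ccl17, in opposite directions. Of 14 cytokines and mediators 11 were below 0 (median -0.37), with the single call of Acod1. Without the filter on low counts, edgeR called 1 chemokine higher (Ccl17) and 3 lower (Ccl5, Ccl9 and Cxcl3). The same fit called 2 cytokines and mediators lower, Acod1 and Tnf, and 116 of 14928 genes in all.

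Single mediators had per-library values that set their precision. Tnf stood at 15.8 and 14.8 CPM in vehicle and 15.0 and 15.6 CPM in MSDC, and at 24.2 and 24.5 CPM against 16.3 and 15.6 CPM after Poly(I:C). The resting groups overlapped and the stimulated groups did not, with an interaction of -0.61 (SE 0.14) whose adjusted p of 0.12 missed the threshold. Il1b had -0.83 (SE 0.28, adjusted p = 0.562), with 12.3 and 11.3 CPM against 3.34 and 4.89 CPM after Poly(I:C). The monocyte attractant Ccl2 had -0.72 (SE 0.28, adjusted p = 0.698) although its levels were far apart, 16.7 and 14.2 CPM against 1.07 and 2.40 CPM at rest and 76.7 and 75.9 CPM against 5.29 and 5.20 CPM after Poly(I:C); its log2 differences between MSDC and vehicle were -3.15 and -3.86. Cxcl10, an interferon-inducible chemokine, had -0.18 (SE 0.89, adjusted p = 0.995). Ccl5, a T cell attractant, had -1.65 (SE 0.56, adjusted p = 0.562) on a resting level of 0.207 to 0.710 CPM over the 4 unstimulated libraries.

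Of the 18 class I presentation genes tested, 2 were called, H2-K1 and H2-D1, and 8 of the 18 had a value above 0 (median -0.05). Over all 11621 tested genes, 0.224% were called and 756 had an unadjusted p under 0.05 in edgeR. The light chain gene B2m had -0.31 (SE 0.10, adjusted p = 0.53), the peptide transporter gene Tap1 0.07 (SE 0.10) and the transactivator gene Nlrc5 0.53 (SE 0.20, adjusted p = 0.64). Of 9 class II genes 0 were called by edgeR, DESeq2 or limma (0 at an unadjusted p under 0.05 in edgeR), and H2-Ab1 had 0.08 (SE 0.12): it was at 60.7 and 61.3 CPM against 20.5 and 19.5 CPM at rest and at 103 and 96.8 CPM against 37.6 and 31.8 CPM after Poly(I:C).

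Lipid and pyruvate genes mostly had interactions near 0, also where their levels differed greatly with MSDC. Beside the list counts below, 756 of all 11621 tested genes had an unadjusted p under 0.05 in edgeR. The PPAR targets, genes of lipid handling, had a median log2 difference between MSDC and vehicle of 1.80 without Poly(I:C) and 1.79 with it; their median interaction was -0.04 with 0 calls among 18 by edgeR, DESeq2 or limma (2 at an unadjusted p under 0.05 in edgeR). Plin2, a lipid droplet coat, stood at 598 and 661 CPM against 2818 and 2737 CPM at rest and at 711 and 710 CPM against 2706 and 2833 CPM after Poly(I:C) (interaction -0.18, SE 0.08, adjusted p = 0.76). Cd36, a fatty acid receptor, had -0.03 (SE 0.09), and Pparg, which encodes the nuclear receptor itself, had 0.03 (SE 0.09, adjusted p = 0.995). Pdk4, a kinase that restrains pyruvate oxidation, had -0.54 (SE 0.47, adjusted p = 0.934).

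Mpc1 and Mpc2, the subunits of the mitochondrial pyruvate carrier, had interactions of -0.09 (SE 0.09) and -0.04 (SE 0.12). The pyruvate handling list had 0 calls among 18 by the same tools. At an unadjusted p under 0.05 in edgeR it had 1, beside 756 of all 11621 tested genes. Mpc2 was at 23.4 and 24.7 CPM against 91.2 and 102.6 CPM at rest and at 28.1 and 25.4 CPM against 99.2 and 110.2 CPM after Poly(I:C). Of 23 cholesterol synthesis genes 0 were called by the same tools (1 at an unadjusted p under 0.05 in edgeR), with a median of 0.03, and Hmgcs1, an early enzyme of that pathway, had 0.14 (SE 0.11). C5ar1, the receptor for complement fragment C5a, had 0.35 (SE 0.29, adjusted p = 0.916), at 2.24 and 2.31 CPM against 193 and 188 CPM at rest. A p that misses the threshold does not show that an interaction is absent.

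The calls differed in how firmly they stood. Of the 16 alternatives, 8 left out a library and 8 used all libraries. Cfb, Gbp7, Ifi27, Acod1 and Lgals9 kept an adjusted p under 0.05 in every one that used all libraries. When libraries were left out, values ran from -1.62 to -1.42 for Acod1 and from 1.01 to 1.06 for Gbp7. They ran from -0.88 to -0.79 for Cfb, 0.94 to 1.17 for Lgals9 and 1.62 to 2.08 for Ifi27. The value of Gbp7 was as low as 0.82 in the other alternatives. The direction of all 26 was the same in all 16 alternatives. The number of calls was not: it was 26 with all libraries, 5 without MSDC replicate 1, 8 without Poly(I:C) with MSDC replicate 1, 6 without its replicate 2, 13 and 16 when Poly(I:C) with vehicle lost its replicate 1 or 2, 20 without MSDC replicate 2, and 63 and 92 when vehicle replicate 1 or 2 was dropped. The other 21 genes each lost the call in at least 1 of the 8 alternatives that used all libraries, many of them in more. Junb and Clec7a kept it in 3 of these 8, and Dhx58, H2-K1, Sema4d, Nt5c3 and Clec4e in 4. Dhx58 lost it with DESeq2 and all 3 limma fits.

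**Figure D5:**
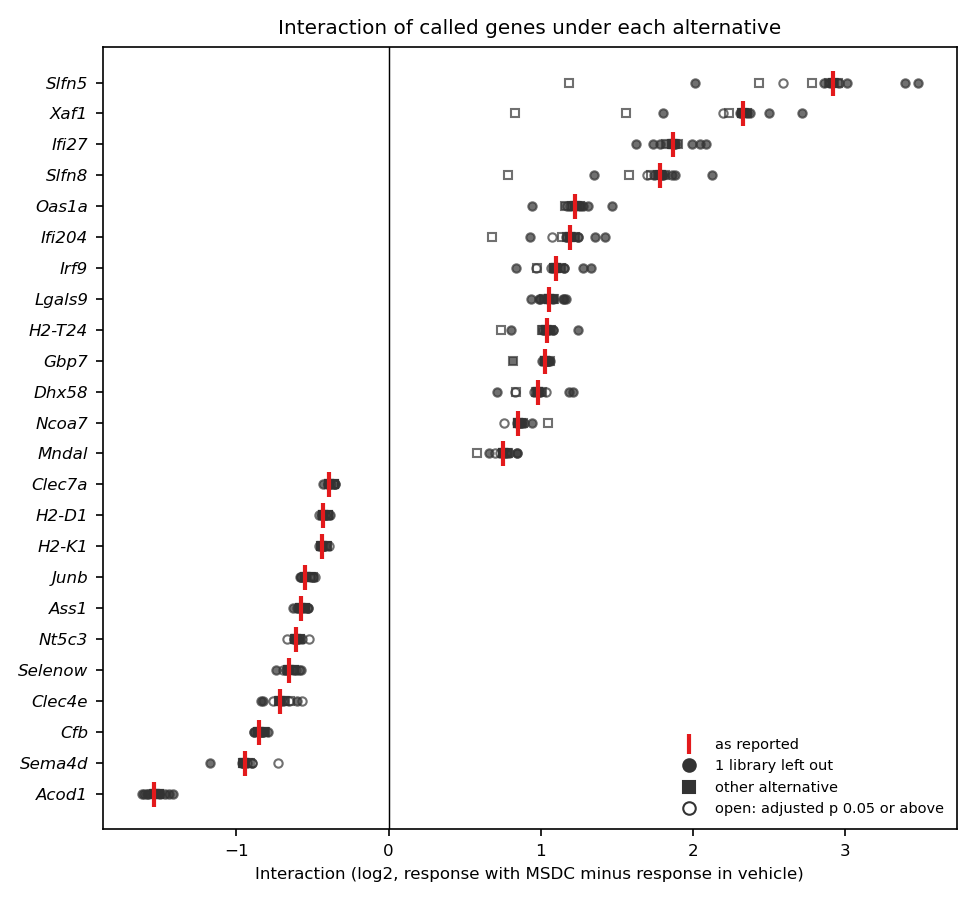
Interaction (log2) of 24 called genes as reported (red bars) and under each alternative (circles: 1 library left out; squares: other alternatives; open where the adjusted p was 0.05 or above), with Gm14308 left out for scale. No value crosses 0, and the markers of Cfb, Gbp7, Ifi27, Acod1 and Lgals9 are all filled.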

How the data were processed

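RNA of 8 samples was measured by bulk RNA-seq. The authors deposited per gene and library an expected count (an estimate that need not be whole) together with FPKM and TPM values, per the file headers. The deposited counts are not scaled to depth, and 5.95 to 7.19% of a library's values were not whole (tolerance 1e-06); they were rounded here. The deposited FPKM values served for alternatives only and the deposited TPM values were not used. Bowtie2 2.3.4, TopHat2 2.1.1 and Cuffdiff appear in the submitters' processing notes; which tool made which column, the counting rule and use of strand are not given in the sources used here, so overlapping and closely related genes are uncertain. Symbols turned into dates (23) were repaired from gene identifiers, of which 99.3% matched RefSeq.

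After filterByExpr 11621 genes remained. TMM gave factors of 0.985 to 1.027. A quasi-likelihood model of the 4 groups used all 8 libraries at once (edgeR 4.0.16 in R 4.3.3), with 4 residual degrees of freedom. The interaction contrast was tested two-sided. The SE was derived from the F statistic and is not reliable for values near 0 or genes with few counts. The procedure was tested on simulated data with the same dispersion for every gene and each gene drawn independently. That test does not cover replicate differences shared by many genes, as seen above, and its outcome is not used here. Alternatives used DESeq2 1.42.0 and limma 3.58.1. The labels do not say that a replicate number marks a shared batch, and no pairing was used. Over the 6 pairs of groups the correlation of replicate differences, taken over all tested genes, ran from -0.032 to 0.050. No replicate pair agreed within sampling noise (chi-square per degree of freedom 4.29 to 14.8, largest for vehicle), and the first principal component held 48% of the variance.

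Named genes were the 12 largest interactions each way among called genes whose highest group mean reached 5 CPM (no predicted models), up to 4 called members of each of 35 gene lists, the 3 most abundant calls each way and a fixed set. The genes, lists and tests were chosen with earlier results of these data known. Some genes are not reported here. Figures used matplotlib 3.10.9.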

Additional observations from a re-analysis of the deposited data

Results flagged for a closer look

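The response to Poly(I:C) differed between cells given MSDC and cells given vehicle by the test of the difference itself in 26 genes, 0.224% of those tested (edgeR's quasi-likelihood test, adjusted p under 0.05, 2 samples a group). As log2 interactions, the higher values were 6.33 for Gm14308, 2.92 for Slfn5, 2.33 for Xaf1, 1.87 for Ifi27, 1.79 for Slfn8, 1.23 for Oas1a, 1.19 for Ifi204, 1.10 for Irf9, 1.05 for Lgals9, 1.04 for H2-T24, 1.03 for Gbp7, 0.98 for Dhx58, 0.85 for Ncoa7 and 0.75 for Mndal. The lower values included -1.54 for Acod1, -0.94 for Sema4d, -0.85 for Cfb, -0.72 for Clec4e, -0.66 for Selenow, -0.61 for Nt5c3, -0.58 for Ass1, -0.55 for Junb, -0.44 for H2-K1, -0.43 for H2-D1 and -0.39 for Clec7a. In all 14 of the genes called higher, vehicle replicate 1 was above vehicle replicate 2. Of the 26 calls, 25 and 26 were kept without vehicle replicate 1 or 2, 5 and 15 without MSDC replicate 1 or 2, 11 and 14 without replicate 1 or 2 of Poly(I:C) with vehicle, and 8 and 6 without replicate 1 or 2 of Poly(I:C) with MSDC.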

How the results depend on the processing

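All 26 called genes kept their direction in all 16 alternatives, and 163 of the 416 pairs of a called gene and an alternative lost the call. Beside 14 higher and 12 lower calls, scaling by library totals gave 14 and 4, no filter on low counts 64 and 52 (all among the 11621 genes tested), DESeq2 23 and 24, limma voom 6 and 6, limma on log2(FPKM + 1) 6 and 24, and limma on log2(FPKM + 0.1) 3 and 4; the cause was not tested. Leaving out each library gave 3 to 62 higher and 2 to 39 lower calls. With 1 library left in a group, that library is assumed to vary like the others.

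A fit with the replicate number as a block gave 16 higher and 8 lower calls, 21 of them among the 26. Over all tested genes same-numbered libraries did not deviate together, which cannot settle whether a batch shared by few genes exists. Among the 30 interferon-stimulated genes, replicate 1 was below replicate 2 in 23 with MSDC. It was below in 24 for Poly(I:C) with vehicle and in 23 for Poly(I:C) with MSDC. In the vehicle group it was above in 29. Whether the numbers pair the samples was not tested.

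Signs turned only in genes that were not called, among them those given here. Cd36 reached 0.00084 with library totals, 0.0048 with log2(FPKM + 1) and 0.0045 with log2(FPKM + 0.1). Cxcl10 reached 0.59 with voom, 0.17 with log2(FPKM + 1) and 0.35 with log2(FPKM + 0.1). When libraries were left out, values ran from -0.11 to 0.044 for Cd36, -1.04 to 2.49 for Cxcl10, -0.11 to 0.064 for Mpc2, -0.17 to 1.01 for Isg15, -0.052 to 1.57 for Irf7, -0.023 to 0.077 for Pparg, -1.17 to 0.0035 for Ccl2, -0.17 to 1.20 for C5ar1, -1.05 to 0.29 for Pdk4 and -0.042 to 0.22 for H2-Ab1. The median of the interferon-stimulated list was 0.08 with log2(FPKM + 1).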
